A study of Rattus norvegicus with 2 samples.

Results

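Proteasome genes were described in RMT-1 clone E4, a clonal line of rat mammary tumour cells, after transient transfection with an siRNA against Pla2g4c, set against the same line given a negative control siRNA. Both groups were grown in the same serum-containing medium, and each was measured on 1 one-colour array (2 arrays in all), so differences have no replicate check and were not tested across samples. The time after transfection and the siRNA dose are not given in the sources used here. Pla2g4c encodes a cytosolic phospholipase A2, and the title of the series gives apoptosis on its repression as the topic. Members were the gene probes whose transcript belongs to a rat gene with a symbol starting Psma, Psmb, Psmc, Psmd, Psme, Psmf or Psmg, without the immunoproteasome subunits Psmb8, Psmb9 and Psmb10. That rule found 43 genes on 49 probes, of 15159 named genes on 18006 probes. Of these members 42 were measured, meaning that every usable spot of at least 1 probe was well above background on both arrays. The exception, Psma8, the alpha subunit of the testis form, had 3 probes of 1 spot each, and none was well above background on either array. No probe was matched to Psmb11, Psmb3l1, Psmb3l2, Psmb6l1, Psmd11, Psmg1, Psmg3 or Psmg4l1.

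The proteasome degrades proteins that carry ubiquitin chains. Its core particle is a barrel of alpha rings around beta rings, with the proteolytic sites on the beta subunits Psmb5, Psmb6 and Psmb7. The regulatory particle caps the barrel, binds and deubiquitinates the substrate, and unfolds it with a ring of Psmc ATPases held by Psmd subunits. Dedicated chaperones assemble both particles, and Psme proteins are alternative caps. The subunits are made together, largely through the transcription factor Nfe2l1, which binds antioxidant response elements in their promoters when proteasome activity is low.

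Promoters are shown for 5 members: the catalytic subunits Psmb5 and Psmb6 and the scaffold subunit Psmd3, which hold the motif named next, and the members with the highest and the lowest difference between the arrays, Psme3 and Psmc6. They are RefSeq sequences of the GRCr8 build, 250 bases before to 50 bases after the annotated start, 300 in all, and capitals mark the core of the antioxidant response element, TGACNNNGC, or the CCAAT box bound by NF-Y, on either strand.
Psmb5 (chr15:32047330-32047629, minus strand): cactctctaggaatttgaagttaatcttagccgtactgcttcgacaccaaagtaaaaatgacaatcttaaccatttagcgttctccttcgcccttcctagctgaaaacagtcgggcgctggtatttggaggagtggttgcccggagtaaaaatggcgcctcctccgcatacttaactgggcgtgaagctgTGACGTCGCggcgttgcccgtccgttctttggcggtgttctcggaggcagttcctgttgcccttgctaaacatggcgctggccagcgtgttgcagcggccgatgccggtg
Psmb6 (chr10:55737638-55737937, plus strand): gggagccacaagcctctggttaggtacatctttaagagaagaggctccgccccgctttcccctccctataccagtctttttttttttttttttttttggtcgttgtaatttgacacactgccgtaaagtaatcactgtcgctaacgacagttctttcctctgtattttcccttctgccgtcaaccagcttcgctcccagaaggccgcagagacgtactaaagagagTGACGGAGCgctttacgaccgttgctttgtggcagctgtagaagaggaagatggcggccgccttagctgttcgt
Psmd3 (chr10:84139688-84139987, plus strand): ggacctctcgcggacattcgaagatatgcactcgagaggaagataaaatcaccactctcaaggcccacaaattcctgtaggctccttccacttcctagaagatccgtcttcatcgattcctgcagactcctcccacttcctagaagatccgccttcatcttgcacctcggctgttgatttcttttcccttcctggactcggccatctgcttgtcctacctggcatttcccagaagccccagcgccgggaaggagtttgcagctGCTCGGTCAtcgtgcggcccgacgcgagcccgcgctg
Psme3 (chr10:86757683-86757982, plus strand): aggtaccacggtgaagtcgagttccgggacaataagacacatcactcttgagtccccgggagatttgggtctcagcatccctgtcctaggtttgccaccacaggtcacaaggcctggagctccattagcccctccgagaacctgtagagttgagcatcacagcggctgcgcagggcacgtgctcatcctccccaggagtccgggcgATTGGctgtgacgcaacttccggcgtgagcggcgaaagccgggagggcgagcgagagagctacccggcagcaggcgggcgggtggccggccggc
Psmc6 (chr15:21022064-21022363, plus strand): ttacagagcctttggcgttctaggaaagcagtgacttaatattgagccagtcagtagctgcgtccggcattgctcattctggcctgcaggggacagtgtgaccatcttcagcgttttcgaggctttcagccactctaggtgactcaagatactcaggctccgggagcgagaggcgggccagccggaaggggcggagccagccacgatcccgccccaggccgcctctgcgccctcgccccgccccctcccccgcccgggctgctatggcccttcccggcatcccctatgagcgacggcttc

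Counted from the annotated start, the element begins at position -60 in Psmb5 (TGACGTCGC), at position -24 in Psmb6 (TGACGGAGC) and at position 14, within the transcript, in Psmd3 (GCTCGGTCA, the opposite strand). Psme3 holds a CCAAT box on the opposite strand at position -44, and Psmc6 holds neither motif in this window. Of the 39 members with a promoter in the table, 8 held TGACNNNGC (20.5%), against 12.1% of all 33469 promoters, and 20 held CCAAT (51.3%), against 37.5%. The 8 members with TGACNNNGC (Psma3, Psmb2, Psmb5, Psmb6, Psmd1, Psmd3, Psmd9 and Psme4) had a median difference of -0.05, ranging from -0.49 to 0.35. The 30 measured members without it had a median of 0.02, ranging from -0.64 to 0.46. A match is a description of the letters and does not show that a factor binds there.

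Relative to the bulk of the genes, proteasome gene expression was nearly level between the arrays. Each difference here is the log2 signal on the Pla2g4c siRNA array minus that on the control array, each scaled to its array's 75th percentile, and the value after ± is the error that the scanner software attached to the signals, a technical error that leaves out any spread between cultures. The 42 measured members had a median difference of 0.01 and lay between -0.64 and 0.46, where all 9026 measured named genes had a median of -0.01. Above 0 were 22 members and below 0 were 20, against 49.0% and 51.0% of all genes. Only Psmc6 reached 1.5-fold (0 members higher and 1 lower), a share of 2.38%, against 19.0% of all genes, 8.69% higher and 10.3% lower. Such differences were rarer among bright genes: of the 4458 genes above the median probe signal, 229 were at least 1.5-fold higher and 385 lower. All directions are relative to the bulk of the genes: scaled to spike-in RNAs, which put the median of all genes at 0.52, members had a median of 0.54, with 16 at least 1.5-fold higher and 0 lower, against 43.0% and 2.24% of all genes. At 2-fold there were 0 members in either direction, against 2.91% of all genes higher and 3.05% lower. The middle 50% of members, by quartiles, lay from -0.12 to 0.13, against -0.27 to 0.25 for all genes and -0.24 to 0.19 for the 4458 genes above the median probe signal. For 30 of the 42 members the difference was within its software error of about 0.20, as it was for 42.9% of all genes. Of the remaining 12, 6 were above it (28.0% of all genes) and 6 below it (29.1%). Of the 4458 genes above the median probe signal, 1046 were above their error and 1269 below. The error was about 0.20 for every measured member, whatever the number or spread of its spots. It thus served as a single fixed cutoff and not as a measured precision of each gene.

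**Figure D1:**
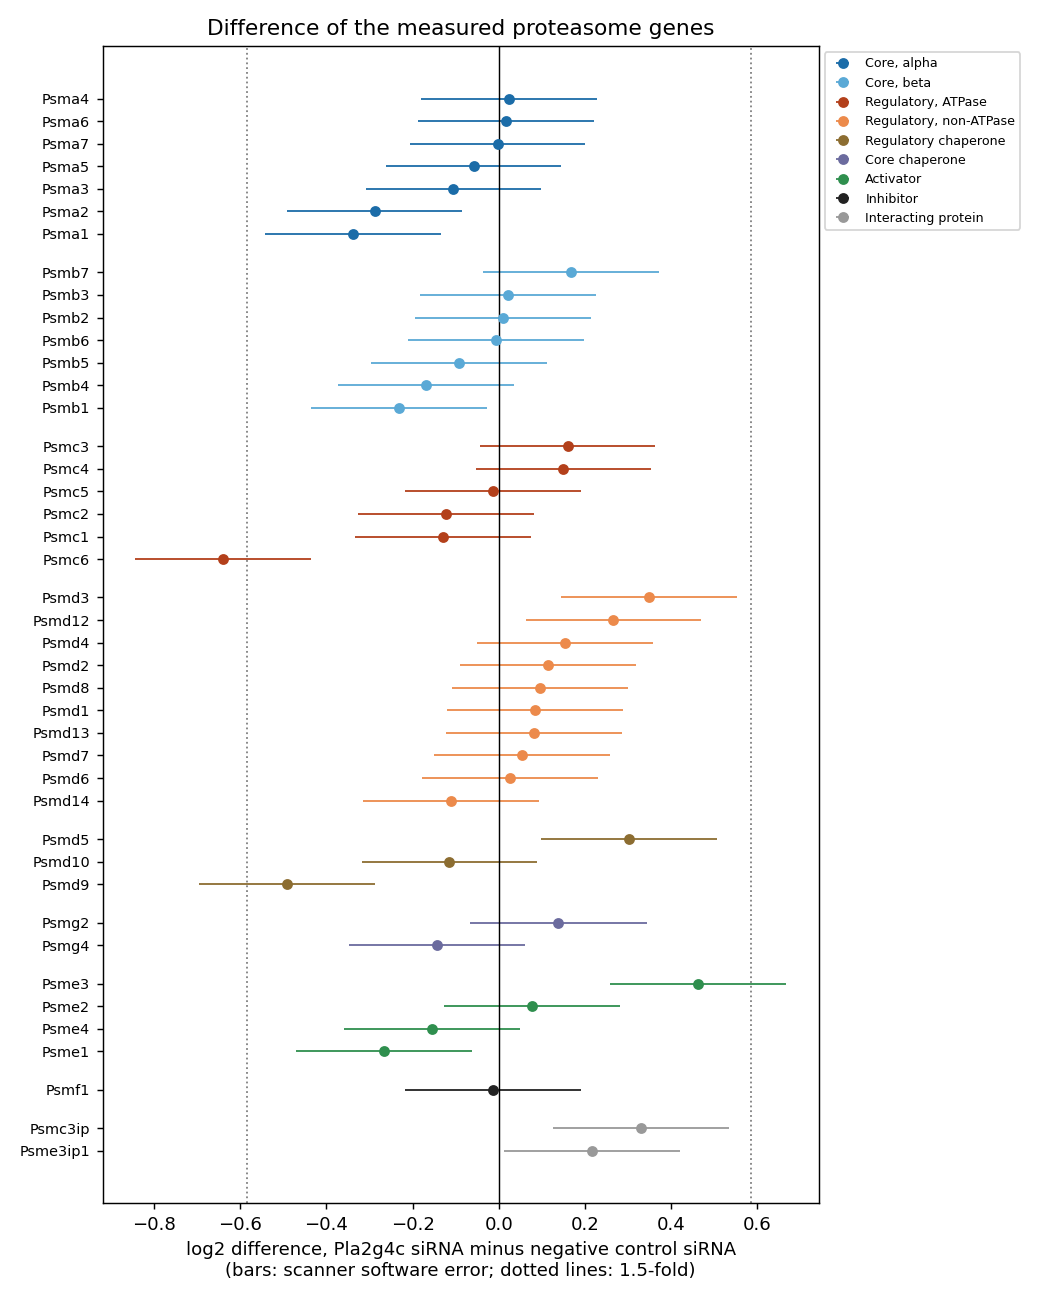
Points are the log2 difference of each of the 42 measured members, Pla2g4c siRNA minus negative control siRNA, grouped by role down the page, and bars are the software error. Psmc6, at -0.64, is the only point outside the dotted lines at 1.5-fold, and 9 of 10 non-ATPase subunits lie right of 0.

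Most members were bright. By mean signal of both arrays, 19 of the 42 fell among the brightest 903 genes and 9 among the next 902. Those brightest 903 genes together had a median difference of -0.14 and the 19 members a median of 0.02. In the next 902 genes the order was the opposite, with a median of -0.03 for all and -0.13 for the 9 members. Cyclic loess and quantile normalization, which remove such trends with signal, gave the members medians of 0.14 and 0.12, with 29 and 30 of 42 above 0. All genes then had medians of 0.02 and 0.01, with 52.0% and 51.8% above 0. Scaling to the 75th percentile gave 22 members above 0, against 49.0% of all genes.

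**Figure D2:**
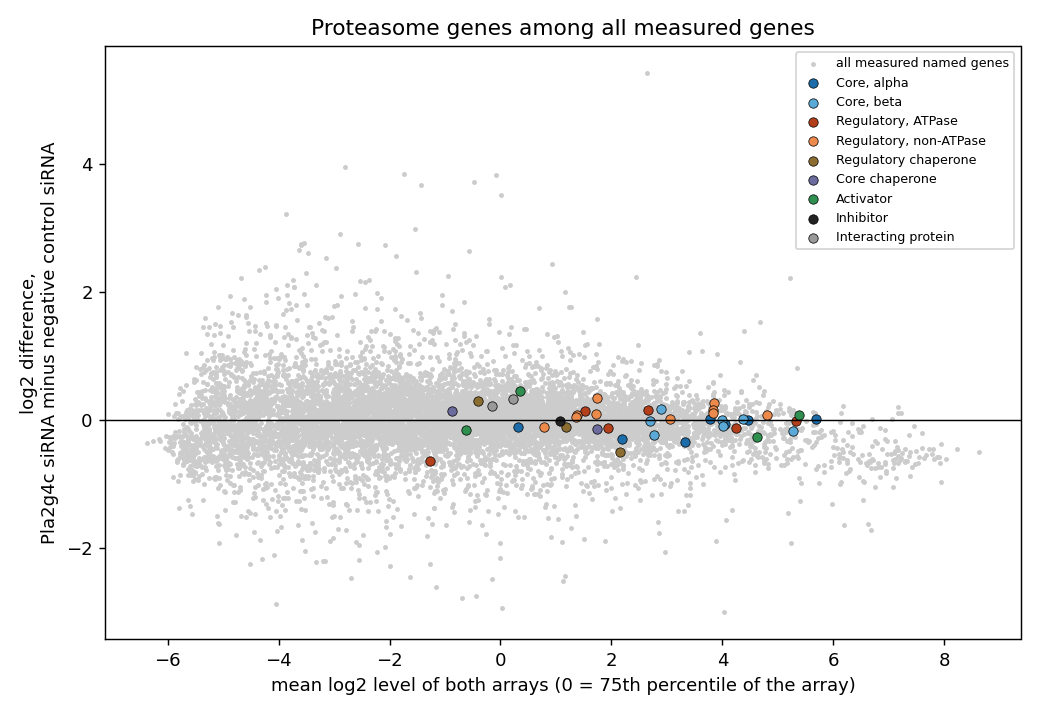
The horizontal axis is the mean log2 level of both arrays relative to the 75th percentile, the vertical axis the log2 difference, Pla2g4c siRNA minus negative control siRNA, with all 9026 genes in grey and members coloured by role. Members lie in a narrow band about 0 toward the bright end, with Psmc6 the lowest and the dimmest of them.

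In the core particle no subunit reached 1.5-fold, against 19.0% of all genes in either direction. Of 14 measured subunits 5 were above 0 (35.7%, against 49.0% of all genes), and the core median was -0.03. Levels below are scaled signals, in multiples of the array's 75th percentile, and serve to compare arrays for 1 probe, not genes with each other. The chymotrypsin-like subunit Psmb5 had spots at 15.3 and 16.0 on the Pla2g4c siRNA array, against 16.3 and 17.0 on the control array (-0.09 ± 0.20). The caspase-like subunit Psmb6 had spots at 6.42 and 6.53, against 6.36 and 6.66 on the control array (-0.01 ± 0.20), so that its spots overlapped between the arrays. For the trypsin-like subunit Psmb7 the spots were at 7.66 and 8.02, against 6.86 and 7.09 on the control array (0.17 ± 0.20). All 3 catalytic subunits thus differed by less than the software error. The other beta subunits, which have structural roles, ran from Psmb3 (0.02) and Psmb2 (0.01) to Psmb4 (-0.17) and Psmb1 (-0.23 ± 0.20). Of these, only Psmb1 passed the software error, with every spot lower on the Pla2g4c siRNA array. In that direction 29.1% of all genes passed theirs.

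Among the alpha subunits, which form the gate of the barrel, Psma1 and Psma2 lay lowest. Psma1 had spots at 8.65 and 9.15 on the Pla2g4c siRNA array, against 11.1 and 11.4 on the control array (-0.34 ± 0.20). Psma2 had spots at 4.07 and 4.18, against 5.00 and 5.08 on the control array (-0.29 ± 0.20). In both, every spot was lower on the Pla2g4c siRNA array. Each difference turned positive when the arrays were scaled to spike-in RNAs (0.19 and 0.24), which put the median of all genes at 0.52. Psma4 had spots at 13.2 and 14.5, against 13.2 and 13.9 on the control array (0.02 ± 0.20), and Psma6 averaged 51.6, against 51.0 (0.02 ± 0.20). Those 2 subunits were the highest of the alpha ring, and their spots overlapped between the arrays. The other 3 were Psma7 (-0.00), Psma5 (-0.06) and Psma3 (-0.11).

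The regulatory particle had a median of 0.08, with 11 of 16 measured subunits above 0 (68.8%, against 49.0% of all genes). Of its 6 ATPases, Psmc6 had the lowest difference of all members. Its spots were at 0.319 and 0.343 on the Pla2g4c siRNA array, against 0.503 and 0.526 on the control array, 1.56-fold lower (-0.64 ± 0.20). The spots did not overlap, but Psmc6 rests on 1 probe and was the dimmest measured member, 8.69% of all genes had a lower difference, and 3 alternatives put it under 1.5-fold: normexp background correction (-0.52), the authors' deposited values (-0.51) and spike-in scaling (-0.11). Psmc1 had spots at 3.64 and 3.73, against 3.98 and 4.08 on the control array (-0.13 ± 0.20). At the other end of the ATPase ring were Psmc3, with spots at 6.49 and 6.79 against 5.90 and 5.99 on the control array (0.16 ± 0.20), and Psmc4, with 2.96 and 3.07 against 2.71 and 2.72 (0.15 ± 0.20). The 5 ATPases other than Psmc6 thus stayed within the software error, Psmc5 (-0.01) and Psmc2 (-0.12) included.

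The 10 measured non-ATPase subunits mostly lay above 0, with a median of 0.09 and 9 of 10 above 0, against 49.0% of all genes. Those 9 were above 0 under each of the 10 processing alternatives, but most alternatives could hardly change a sign. Each of these genes has 1 probe, so the choices of probe, filter and flags left its value nearly unchanged. Median scaling, spike-in scaling and the deposited values each shifted these genes by about the same amount. How many of all genes kept their sign was not counted. The scaffold subunits Psmd3 and Psmd12 were the 2 of 10 whose difference passed the software error, where 28.0% of all genes lay above theirs. Psmd3 had spots at 3.73 and 3.77 on the Pla2g4c siRNA array, against 2.88 and 3.01 on the control array (0.35 ± 0.20). Psmd12 was printed many times, and its 9 usable spots ran from 14.7 to 16.3, against 12.4 to 13.6 on the control array (0.27 ± 0.20), with no overlap. Psmd6, on 10 spots, ran from 7.97 to 8.82, against 7.78 to 8.73 on the control array (0.03 ± 0.20), so that its ranges nearly coincided. Psmd14, the subunit that removes ubiquitin chains, was the only one below 0, with spots at 1.53 and 1.79 against 1.68 and 1.92 on the control array (-0.11 ± 0.20). Between these lay the ubiquitin receptor Psmd4 (0.15), the base scaffolds Psmd2 (0.11) and Psmd1 (0.08), and the lid subunits Psmd8 (0.10), Psmd13 (0.08) and Psmd7 (0.05).

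**Figure D3:**
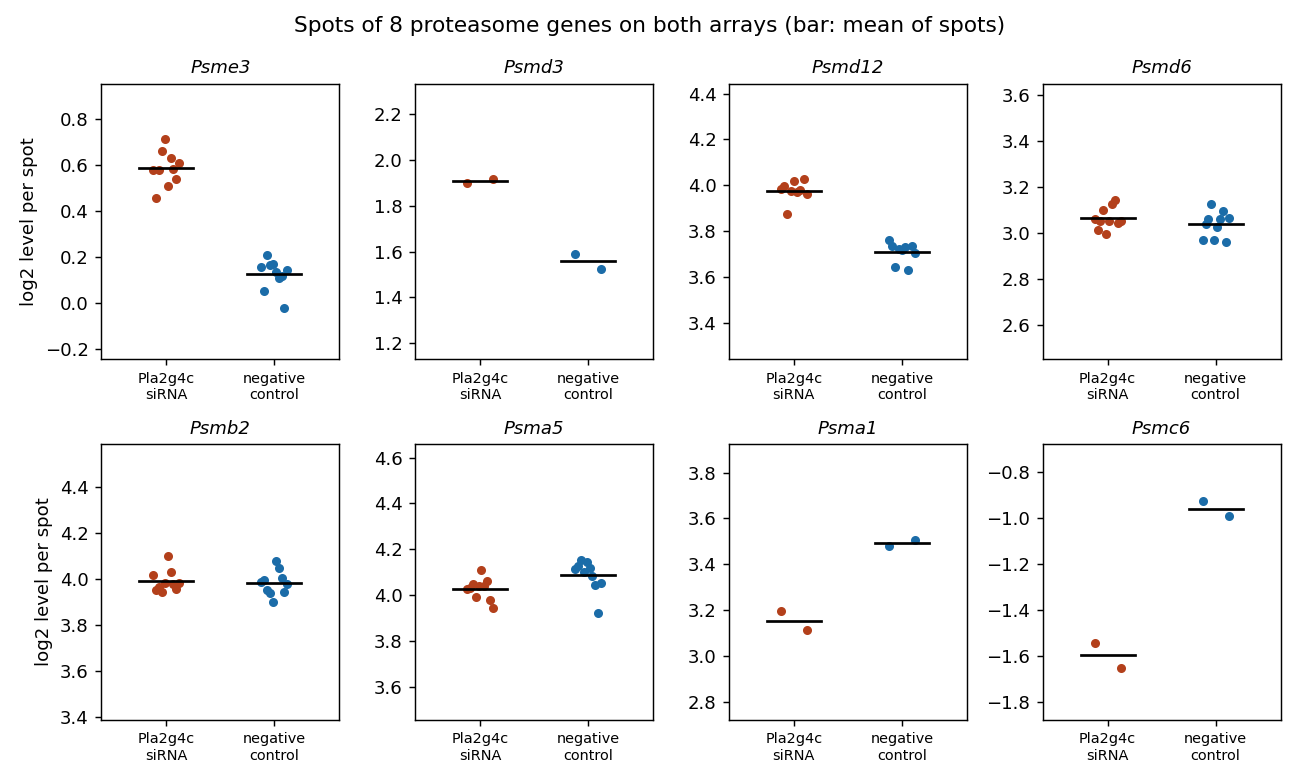
Each point is 1 spot, as log2 level relative to the array's 75th percentile, with the Pla2g4c siRNA array left of the control array and a bar at the mean of spots, on axes that all span the same log2 range. Spots of Psme3, Psmd3 and Psmd12 are higher and those of Psma1 and Psmc6 lower without overlap, while Psmd6, Psmb2 and Psma5 overlap.

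The core median was lower than the regulatory median by 0.12 (difference of medians -0.12). No error of this gap was available, since the software error is that of single genes. Core subunits were also brighter, with a median log2 level of 3.88 over both arrays, against 2.3 for the regulatory particle. Of all genes, the brightest 903 had a median difference of -0.14 and the next 902 of -0.03. The part of signal level in the gap was not tested. Under the authors' deposited values the medians were 0.10 for the core and 0.21 for the regulatory particle, under cyclic loess 0.12 and 0.17, and under quantile normalization 0.12 and 0.13, a gap of -0.01. The core median thus had either sign depending on the processing, and members of a list are not replicates, so no test was made.

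**Figure D4:**
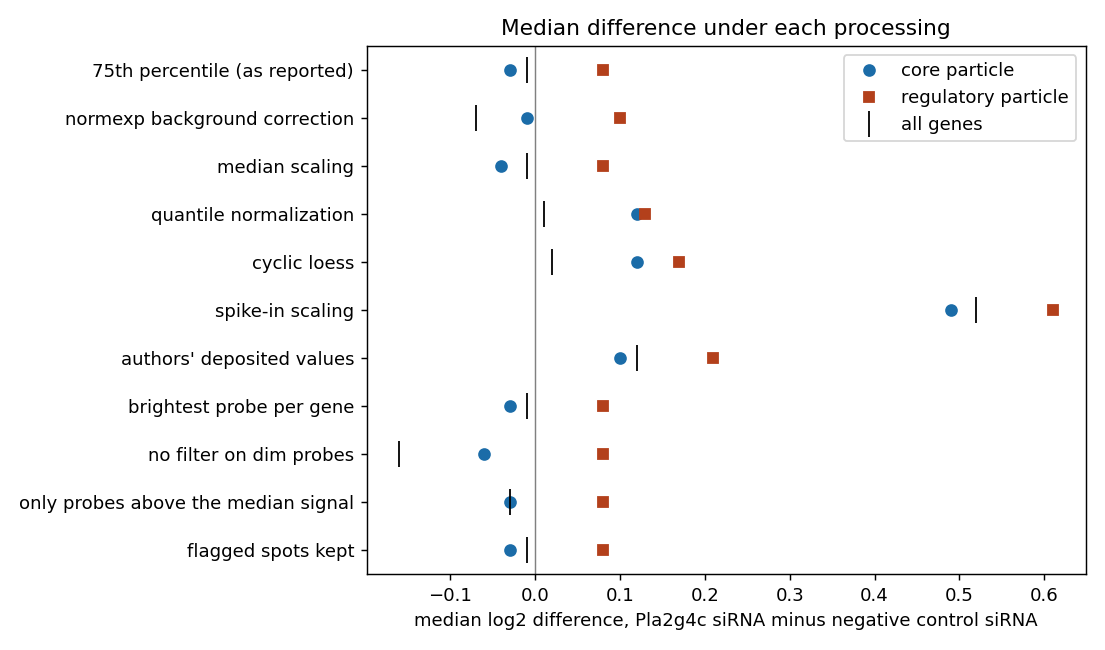
Symbols are the median log2 difference, Pla2g4c siRNA minus negative control siRNA, of core subunits (circles), regulatory subunits (squares) and all genes (bars) under each processing. The regulatory median lies right of the core median in each row, by 0.01 under quantile normalization, and spike-in scaling moves both with all genes.

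The assembly chaperones differed among themselves. Psmd9, a chaperone of the ATPase ring, had a pair of probes, each with a difference of -0.49 and no overlap of spots. The first gave spots at 6.38 and 6.43 on the Pla2g4c siRNA array, against 8.89 and 9.10 on the control array, and the second averaged 2.19, against 3.08. The gene was 1.40-fold lower (-0.49 ± 0.20), although spike-in scaling put it at 0.04 and the median of all genes at 0.52. Psmd5, which also acts on the ATPase ring, had spots at 0.836 and 0.850, against 0.660 and 0.708 on the control array (0.30 ± 0.20). Psmd10, or gankyrin, the remaining chaperone of that ring, had spots at 2.01 and 2.36, against 2.26 and 2.46 on the control array (-0.11 ± 0.20). Of the core chaperones, Psmg2 had spots at 0.574 and 0.576, against 0.512 and 0.532 on the control array (0.14 ± 0.20). Psmg4 averaged 3.19 over its probes on the Pla2g4c siRNA array, against 3.52 on the control array (-0.14 ± 0.20). Neither core chaperone passed the software error.

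The caps and the inhibitor also differed among themselves. Psme3, which forms a nuclear activator ring, had the highest difference of all members, and its 10 spots ran from 1.37 to 1.64 on the Pla2g4c siRNA array, against 0.985 to 1.16 on the control array, 1.38-fold higher (0.46 ± 0.20). All 10 spots were above all 10 on the control array, and 87.5% of all genes had a lower difference. Psme1 and Psme2 together form the interferon-inducible activator of antigen processing. Psme1 had spots at 22.0 and 23.1, against 26.3 and 27.9 on the control array (-0.27 ± 0.20), a difference of 0.00 under quantile normalization. Psme2 ran from 40.0 to 45.6 over 10 spots, against 37.9 to 43.2 on the control array (0.08 ± 0.20), with overlap. Psme4, a large nuclear activator, averaged 0.617 over its probes, against 0.688 on the control array (-0.16 ± 0.20). Psmf1, a proteasome inhibitor, averaged 2.08, against 2.10 on the control array (-0.01 ± 0.20). That is the mean of 2 probes of 1 spot each, with differences of 0.031 and -0.057. Of the immunosubunits left out by the rule, Psmb9 differed by -0.03 and Psmb10 by 0.21. Psmb8 had unscaled signals of 132 and 145 on the Pla2g4c siRNA array, against 10.9 and 19.9 on the control array, where 1 of its 2 spots was well above background.

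The rule's symbols also took in genes whose products are not proteasome subunits. Psmc3ip, a meiotic recombination cofactor, had spots at 1.24 and 1.38, against 1.03 and 1.06 on the control array (0.33 ± 0.20). Psme3ip1, a partner of Psme3, had spots at 0.931 and 1.01, against 0.824 and 0.844 on the control array (0.22 ± 0.20). Without these 2 genes the other 40 measured members had a median of 0.00, 20 above 0 and 20 below.

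Spots of a member's probe agreed closely within an array, with a median SD of 0.047 on the log2 scale and a highest SD of 0.166. For 17 of the 42 members every spot was higher on the Pla2g4c siRNA array and for 10 every spot was lower, against 39.0% and 39.9% of all genes, a count that includes genes with a single spot. Pseudogenes named after a member are annotated for 19 of the 43 members, 46 in all, among them Psmb3, Psma6, Psme3 and Psmc6, and their part in the signals was not tested.

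Other genes of the pathway differed about as often as genes in general. Of 32 listed, 25 were measured, with a median of -0.06, 1 past 1.5-fold in the higher direction and 3 in the lower, 16.0% together, against 19.0% of all genes. Among regulators of proteasome genes (3 of 5 measured), Nfe2l1 had a scaled signal of 1.26 on the Pla2g4c siRNA array, against 0.667 on the control array, 1.89-fold higher (0.92 ± 0.20), and between 0.76 and 1.44 under the alternatives. Ngly1, which deglycosylates the Nfe2l1 protein for its activation, had 1.30, against 1.89 on the control array (-0.55 ± 0.20, and -0.02 at the highest under the alternatives). The related factor Nfe2l2 differed by -0.39 ± 0.20, with 0.14 at the highest, so that its sign depended on the processing. Spike-in scaling, among these alternatives, moved the median of all genes to 0.52. Of the shuttles and the segregase that bring substrates (10 of 11 measured), the ubiquitin shuttle Rad23b had 3.21, against 6.42 on the control array (-0.998 ± 0.20). Rad23b lay between -1.0 and -0.47 under the 10 alternatives, several of which shift all genes alike or hardly affect a gene with 1 probe. The highest of that list was Nploc4, a cofactor of the segregase Vcp, at 0.46 ± 0.20. Among proteasome-associated proteins (6 of 10 measured) the lowest was Akirin2, a nuclear import factor of the proteasome, with 0.421 against 0.661 on the control array (-0.65 ± 0.20), and the highest the ubiquitin receptor Adrm1 (0.09 ± 0.21). Ubiquitin genes and activating enzymes (6 of 6 measured) ran from Rps27a (-0.54 ± 0.20), a fusion of ubiquitin to a ribosomal protein, to the activating enzyme Uba6 (0.05 ± 0.22), and both changed sign among the alternatives, Rps27a to 0.02 and Uba6 to -0.17.

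No probe was matched to Pla2g4c, so the labels were not checked by the targeted transcript. Gene spots well above background made up 63.12% in the Pla2g4c siRNA sample and 61.93% in the control sample, 0 spots were saturated, and the 75th percentile of the signal was 1105.1 in the Pla2g4c siRNA sample and 851.7 in the control sample. Markers of epithelium were measured for 6 of 7 genes, 2 past 1.5-fold upward and 4 downward, while Krt18 was not well above background. Epcam had a scaled signal of 4.71 on the Pla2g4c siRNA array, against 2.31 on the control array, and Krt8 0.0555 against 0.0306. Krt5 had 56.5 against 186, Krt17 56.0 against 173, Krt14 176 against 345 and Cdh1 4.61 against 7.11. Of immune markers 2 of 6 were measured, Cd68 at 0.188 against 0.245 and Csf1r at 0.0163 against 0.0152 on the control array, and Ptprc, Cd3e and Itgam were too dim to be measured. Mesenchymal markers were measured for 3 of 5 genes, from Vim (-0.76) to Col1a1 (0.13), and milk protein genes for 1 of 5, Csn1s1 (-0.60). In bulk RNA, a change in the cells present and a change in RNA per cell cannot be told apart, and the part of these shifts in the proteasome values was not tested.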

How the data were processed

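RNA of 2 samples was measured, 1 array per group. The deposited linear spot intensities were made by the authors with Feature Extraction of Agilent, whose version is 10.10 in the submitters' processing notes and 10.10.1.1 in the headers. Background was subtracted and a detrending applied within each array, and arrays were not normalized to each other, per the file headers. The deposited outlier and background flags (0 or 1) were used. A deposited table of normalized intensities served as an alternative, and its making is not stated in the sources used.

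Gene spots without an outlier flag on either array were taken as log2 signal minus the array's 75th percentile, averaged per probe and then over a gene's measured probes. Log2 differences carry the deposited signal errors. Flags fell on 2 member spots. Names came from RefSeq transcript accessions (59.3% of 30367 probes). Genes were counted at 1.5-fold and 2-fold. All members may be named, with spot values for those past 1.5-fold, for the 2 highest and 2 lowest of each large class and for small classes. Of the pathway lists, genes past 1.5-fold and both ends were named, of which 1 is not reported here, and Psmb5, Psmb6, Psmd6, Ngly1, Nfe2l2 and the Psmb8 to Psmb10 values were added after being seen. Members and lists were chosen with earlier results of these data known. Alternatives were normexp (offset 50, on the median spot signal), median, quantile, cyclic loess and spike-in scaling (7 RNAs), the deposited values, the brightest probe, both filters on dim probes, and flagged spots kept. Tools were Python 3.11.15 (pandas 2.3.3, numpy 2.4.6, matplotlib 3.10.9) and limma 3.58.1 in R 4.3.3, and steps were tested on simulated data. The number of arrays limits the precision. Array coordinates are not reported, since the array design and the naming table use different builds.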

Additional observations from a re-analysis of the deposited data

How the results depend on the processing

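Without spike-in scaling, the core median ran from -0.06 to 0.12 over the other 9 alternatives run for every result, above 0 under quantile normalization, cyclic loess (0.12 each) and the deposited values (0.10), and the regulatory median from 0.08 to 0.21. Their means were -0.08 and 0.03. Spike-in scaling, which moved the median of all genes to 0.52 with 87.9% of them above 0, put the core median at 0.49 and the regulatory median at 0.61. It gave 16 members at least 1.5-fold higher and 0 lower, against 43.0% and 2.24% of all genes. Relative to all genes the core lay at -0.02 and the regulatory particle at 0.09 there, the same as in the values reported. The deposited values, with a median of 0.12 and 62.8% above 0 over all genes, gave 1 member at least 1.5-fold higher (Psme3) and 0 lower, against 13.0% and 6.61% of all genes. The 1 member at least 1.5-fold lower became 0 under normexp correction (7.36% of all genes lower), under a 2-fold threshold (3.05%), and among probes above the median signal (8.6%), where Psmc6 was not included. Spike-in scaling turned the sign of Psma1 (0.19), Psma2 (0.24), Psmb1 (0.29), Psmd9 (0.04) and Psme1 (0.26), and quantile normalization took Psme1 to 0.00. Of the remaining 412 values of single members, 53 moved by more than their error, 37 of them under spike-in scaling, 9 under cyclic loess and 7 under quantile normalization. No paired analysis was possible because each group has 1 array. Signal over background limited the dim Psma8, and replicate error is unknown throughout.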
